A study of Mus musculus with 12 samples.

Results

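The mouse mitochondrial genome encodes 13 mRNAs, 2 rRNAs and 22 tRNAs, and all of them had a row in a gene expression table of RAW264.7 cells, an established macrophage-like line from mouse. The members were the rows whose gene symbol starts with mt-, 37 of 53801 gene records, and all 37 passed the filter on low values. RNA-seq had been carried out on 12 libraries in 4 groups of 3. Cells carried a control siRNA or an siRNA that silences Synbindin, the TRAPP vesicle-tethering subunit encoded by Trappc4. Each kind of cell was collected without lipopolysaccharide (LPS, an outer membrane molecule of Gram-negative bacteria that macrophages detect through a Toll-like receptor) or after 4 h with LPS at 100 ng/ml. All groups share the cell line, DMEM with serum and passages 3 to 5, and the labels name no allele, transgene or animal. Whether replicates came from separate transfections is not given in the sources used here, so the p-values rest on library-to-library spread, which may be technical.

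Mitochondrial DNA is transcribed from both strands into long precursors that cover many genes. The tRNAs stand between most of the mRNAs and rRNAs, and their excision by nuclear-encoded enzymes releases the other transcripts. The mRNAs encode core subunits of the respiratory chain and of ATP synthase, the rRNAs form the mitochondrial ribosome with imported proteins, and the tRNAs serve mitochondrial translation. Of the 13 mRNAs, 7 encode subunits of complex I (NADH dehydrogenase), 1 encodes cytochrome b of complex III, 3 encode subunits of complex IV (cytochrome c oxidase) and 2 encode subunits of complex V (ATP synthase). Light-strand genes, annotated on the minus strand, include 1 mRNA (mt-Nd6) and 8 tRNAs, and the other 12 mRNAs and 14 tRNAs are on the plus strand.

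The nuclear genome holds copies of mitochondrial DNA, and these bear on 7 of the mRNAs. A run of pseudogenes on chromosome 1, chr1:24611535-24616197 in GRCm38, holds near-identical copies of mt-Nd4, mt-Nd4l, mt-Nd3, mt-Co3, mt-Atp6, mt-Co2 and mt-Co1. Over 4140 aligned bases these 7 pseudogenes differed from the members at 2. A stretch of mt-Co1 (chrM:6390-6489, plus strand, coding) is shown with its 3 copies, since it shows how little separates the mitochondrial from the nuclear records. The sequences were read from GENCODE transcripts of GRCm38, and capitals mark bases at which a copy differs from mt-Co1 (in the first line, the base at the difference from Gm29216).
mt-Co1: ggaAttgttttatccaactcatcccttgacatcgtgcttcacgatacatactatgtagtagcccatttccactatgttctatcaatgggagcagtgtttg
Gm29216: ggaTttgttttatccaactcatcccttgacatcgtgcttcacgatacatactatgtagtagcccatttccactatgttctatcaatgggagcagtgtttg
Gm13340: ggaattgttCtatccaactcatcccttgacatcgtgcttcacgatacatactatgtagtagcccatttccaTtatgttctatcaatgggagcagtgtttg
Gm11512: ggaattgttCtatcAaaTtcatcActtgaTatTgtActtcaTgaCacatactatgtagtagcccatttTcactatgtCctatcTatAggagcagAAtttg
Counted from the first base of mt-Co1, Gm29216 on chromosome 1 carries A1066T in this window, and Gm13340 on chromosome 2 carries T1072C and C1134T. Gm11512 on chromosome 11 differs at 15 of these bases. The remaining difference on chromosome 1 is T3C in Gm28438, the copy of mt-Nd3, shown over the first 60 bases (chrM:9459-9518, plus strand).
mt-Nd3: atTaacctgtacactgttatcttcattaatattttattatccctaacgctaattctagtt
Gm28438: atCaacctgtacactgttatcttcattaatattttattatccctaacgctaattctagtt

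Several members also overlap each other on the mitochondrial genome. The end of mt-Atp8 and the start of mt-Atp6 (chrM:7902-7994, plus strand) share 43 bases, given in capitals, and the end of mt-Nd4l shares 7 bases with the start of mt-Nd4 (chrM:10142-10198).
mt-Atp8 and mt-Atp6: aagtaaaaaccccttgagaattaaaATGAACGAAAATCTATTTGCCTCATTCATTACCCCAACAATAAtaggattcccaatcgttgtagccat
mt-Nd4l and mt-Nd4: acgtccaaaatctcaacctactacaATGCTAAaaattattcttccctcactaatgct
The tRNAs are 59 to 75 bases long, and 4 of those described below are shown. mt-Tl1 and mt-Tl2 are the tRNAs for leucine, mt-Tp is the proline tRNA on the minus strand, and mt-Ts2 is a serine tRNA that ends where mt-Tl2 begins. They lie at chrM:2676-2750, chrM:11671-11741, chrM:15356-15422 and chrM:11613-11671.
mt-Tl1: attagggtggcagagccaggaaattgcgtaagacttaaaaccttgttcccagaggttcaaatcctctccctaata
mt-Tl2: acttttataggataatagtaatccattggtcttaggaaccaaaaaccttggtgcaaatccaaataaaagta
mt-Tp: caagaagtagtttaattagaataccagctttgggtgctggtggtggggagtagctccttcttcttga
mt-Ts2: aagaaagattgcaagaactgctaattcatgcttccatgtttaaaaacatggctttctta

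Values are the FPKM that the authors deposited, a fragment count scaled by gene length and library depth. Depth, estimated from low FPKM values, came out at 7.37 to 17.6 M fragments per library. The estimate is uncertain, since only 8.70% to 14.6% of small values per library came within 1% of a whole multiple of the estimated step. By this estimate, silenced libraries were on average deeper (11.9 against 9.14 M without LPS, 15.2 against 11.9 M after LPS). Libraries with LPS were also deeper on average than those without it, in control and in silenced cells. The part of depth in the results was not tested beyond a fit with this uncertain estimate as a covariate. Between 11672 and 12351 genes reached 1 FPKM in a library. The targeted gene, Trappc4, was at 13.2 ± 0.79 FPKM under control siRNA and at 5.89 ± 1.43 FPKM under its own siRNA without LPS (SD, n = 3). After LPS it was at 13 ± 3.22 and 7.28 ± 1.26 FPKM. All 8 macrophage markers were above 1 FPKM in every group. Their sum differed with silencing. Without LPS it was 1561 to 1713 FPKM in control and 2142 to 2612 FPKM in silenced libraries. After LPS it was 1478 to 1879 and 1994 to 2718 FPKM. Of the 8 markers, 1 and 2 were called higher with silencing, without and after LPS. At both times 5 of the 8 had a log2 fold change above 0, with medians of 0.04 and 0.32. Lyz2 had the highest mean of the 8, at up to 1344 FPKM. The part of these marker differences in the results was not tested. By contrast, in the B cell, T and NK cell, neutrophil, fibroblast and epithelial lists no marker reached 1 FPKM in any library. Ms4a1, Cd3d, Cd8a, Ly6g, S100a9, Pdgfra and Krt8 were listed at 0 in all 12 libraries. In bulk RNA, fewer mitochondria or mitochondrial transcripts per cell and a change in the rest of the RNA cannot be told apart.

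The 13 mRNAs made up 10.9% to 16.9% of all FPKM in a library, and less of it after LPS. Without LPS, their share was 16.1%, 16.9% and 15.6% in the control libraries and 14.6%, 15.2% and 13.5% in the silenced libraries. After LPS, it was 10.9%, 11.2% and 11.7% in the control and 11.6%, 12.4% and 12.03% in the silenced libraries. The group means were 16.2% ± 0.64 and 14.4% ± 0.89 without LPS and 11.3% ± 0.39 and 12.01% ± 0.44 after LPS (SD, n = 3). All libraries with LPS lay below all libraries without it, within control and within silenced cells. Without LPS the silenced libraries lay below the control libraries, and after LPS the ranges overlapped. Weighted by transcript length, which brings the share closer to a share of fragments, the means were 5.16%, 4.63%, 3.71% and 4.08% in the same order. On that scale the LPS groups again lay below, while silenced and control libraries without LPS overlapped.

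**Figure D1:**
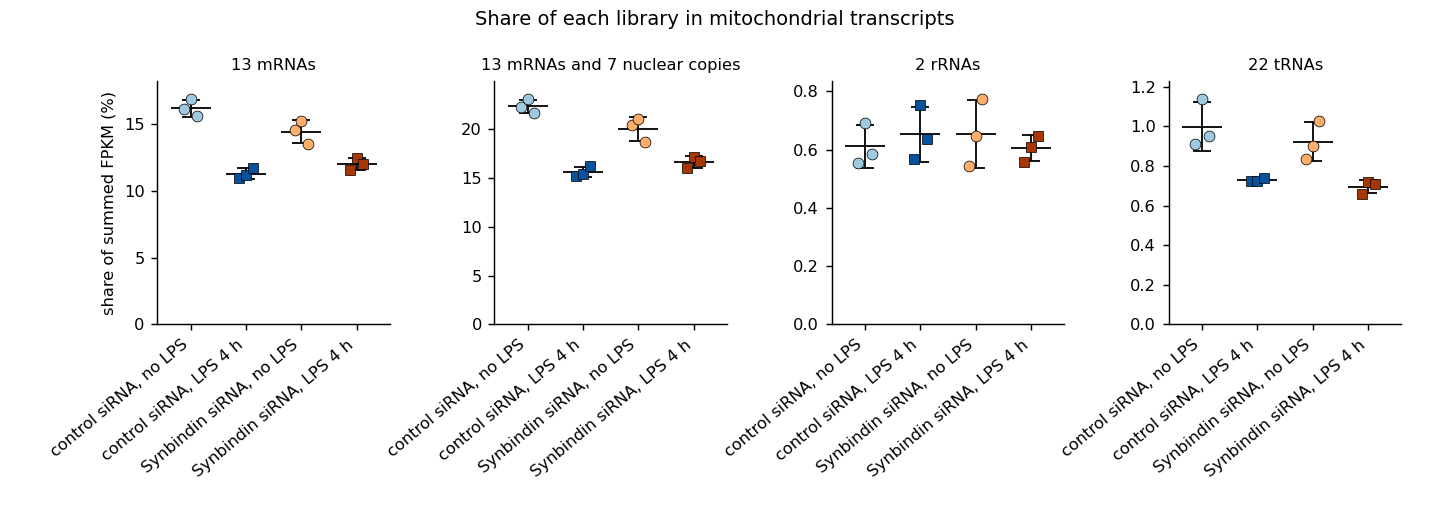
Share of summed FPKM (percent, linear axes from 0) held by the 13 mRNAs, the mRNAs with their 7 near-identical nuclear copies, the 2 rRNAs and the 22 tRNAs. Points are libraries, the horizontal bar is the mean of 3 and the error bar its SD. mRNA shares fall from 15.6% to 16.9% without LPS to 10.9% to 11.7% after LPS in control cells, while rRNA shares overlap between all groups.

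The rRNAs held 0.54% to 0.77% of FPKM, with overlapping ranges in all 4 groups. The tRNAs held 0.91%, 1.14% and 0.95% in control and 0.83%, 0.90% and 1.03% in silenced libraries without LPS. After LPS they held 0.73%, 0.72% and 0.74% in control and 0.66%, 0.72% and 0.71% in silenced libraries, so that all tRNA shares after LPS lay below all those without it. After LPS the highest silenced library, at 0.7198%, lay just below the lowest control library, at 0.7233%. Relative to the mRNA sum, the rRNA sum was 3.77% ± 0.34 in control cells without LPS and 5.78% ± 0.81 after LPS, without overlap. In silenced cells the same ratio was 4.56% ± 1.05 and 5.03% ± 0.30, with overlap. How RNA was selected is not given in the sources used here, and its part in rRNA and tRNA levels was not tested.

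The mRNAs covered a wide range of levels, in an order that was nearly the same in every library. mt-Atp8, which encodes a small membrane subunit of ATP synthase, had the highest mean (8776 FPKM over 12 libraries), and mt-Co1, the catalytic subunit of cytochrome c oxidase, came next (8493 FPKM). Their order was not fixed, since mt-Atp8 was the higher in 7 of 12 libraries. mt-Nd1 (5345 FPKM) and mt-Atp6 (4952 FPKM) followed, with mt-Nd1 higher in 11 of 12, and mt-Cytb (4041 FPKM) held the fifth place in every library. mt-Nd2 (2585 FPKM), mt-Co2 (2498 FPKM) and mt-Nd5 (2195 FPKM) changed places among themselves. mt-Nd4 (1938 FPKM) was ninth in every library, and mt-Nd4l (1491 FPKM) and mt-Co3 (1440 FPKM) were close, with mt-Nd4l higher in 5 of 12. mt-Nd6, the light-strand mRNA, was at 1083 FPKM and mt-Nd3 was lowest at 365 FPKM, both in the same place in all 12 libraries. This order is that of the deposited values and changes when the near-identical nuclear copies are summed with their members. In control cells without LPS, mt-Atp6 with its copy (12882 FPKM) and mt-Co1 with its copy (11130 FPKM) were then above mt-Atp8 (10592 FPKM). mt-Co2 with its copy (5986 FPKM) was above mt-Cytb (4914 FPKM).

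**Figure D2:**
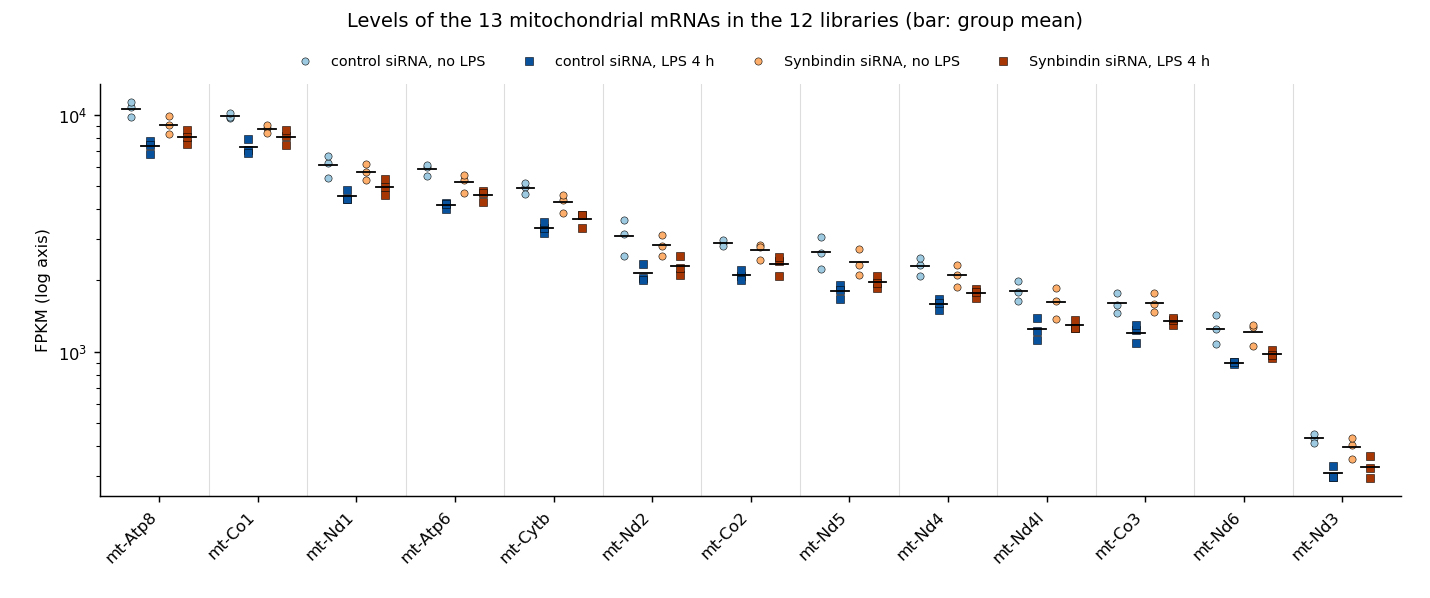
FPKM of the 13 mRNAs on a log axis, ordered by their mean, with 1 point per library and a bar at each group mean. From mt-Atp8 at 8776 to mt-Nd3 at 365 FPKM on average, each mRNA is lower in all control libraries after LPS than in all control libraries without LPS.

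The proportions among the 13 mRNAs moved little between groups. mt-Atp8 held 19.8%, 18.98%, 19.4% and 19.4% of their FPKM sum in control and silenced cells without LPS and control and silenced cells after LPS. mt-Co1 held 18.6%, 18.3%, 19.2% and 19.4% in the same order. Between libraries without and with LPS, the mean proportion of any mRNA moved by at most 0.62 percentage points in control cells and 1.08 points in silenced cells, both for mt-Co1. The light-strand mRNA mt-Nd6 was 0.42 times the median of the 12 heavy-strand mRNAs in control cells without LPS and 0.42 times after LPS. In silenced cells it was 0.44 and 0.42 times that median, and all 4 ranges overlapped. Within groups the coefficient of variation of an mRNA was 7.47% in the median, against 13.03% for the rRNAs and 19.8% for the tRNAs.

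Reads from the 7 mRNAs with near-identical copies cannot be told apart from reads of the copies at most bases, and the table gives the copies large values. Gm10925, the copy of mt-Atp6, was at 4731 to 7308 FPKM, which was 1.18 to 1.20 times mt-Atp6 in the same library. Gm28661 was 1.077 to 1.109 times mt-Co2, Gm28437 was 1.082 to 1.105 times mt-Co3, Gm10222 was 1.096 to 1.122 times mt-Nd4l and Gm28438 was 1.08 to 1.12 times mt-Nd3. Gm28439, which holds 876 of the 1378 bases of mt-Nd4, was 0.76 to 0.81 times it. Gm29216, which aligns with the last 483 bases of mt-Co1, was 0.39 to 0.44 times it. Each of these ranges covers all 12 libraries, so a copy rose and fell with its member whatever the group. Gm29216, Gm10222 and Gm28438 align over fewer than 500 bases, the length set for naming a copy, and were named after their values had been seen.

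**Figure D3:**
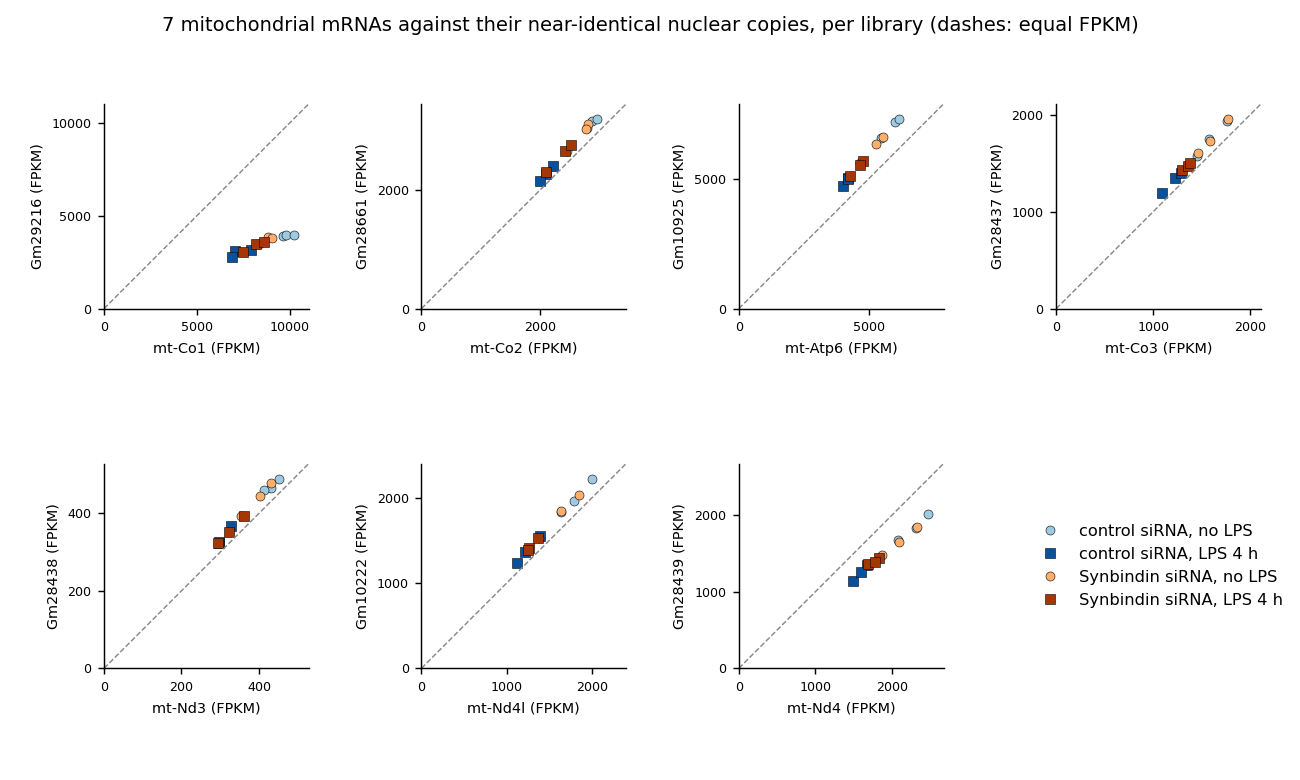
FPKM of 7 mitochondrial mRNAs (horizontal) against the near-identical pseudogene on chromosome 1 (vertical), both on linear axes from 0, with 1 point per library and a dashed line at equal values. The points of each panel lie close to 1 line through all 4 groups, from 0.39 to 0.44 times for mt-Co1 to 1.18 to 1.20 times for mt-Atp6.

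The more diverged copies, at 90.7% to 97.6% identity, held at most 2.36% of the FPKM of their member. Gm13341, a copy of mt-Co2 with 95.9% identity, was at 46.9 to 69.9 FPKM, and Gm13340, the copy of mt-Co1 shown above, at 46.3 to 67.3 FPKM. Gm13339, a copy of part of mt-Nd2, was at 7.81 to 15.98 FPKM, and Gm4076, a copy of part of mt-Nd5, stayed below 1.2 FPKM. Gm11410 (mt-Cytb) and Gm11512 (mt-Co1), whose identity is below 95% and which were named after their values had been seen, were listed at 0 in all libraries. The FPKM of the 7 mRNAs with near-identical copies are therefore uncertain as levels. With the copies added, mRNAs made up 22.3% ± 0.71 and 20.01% ± 1.24 of FPKM in control and silenced cells without LPS, and 15.6% ± 0.53 and 16.6% ± 0.58 after LPS. In control cells the median log2 fold change after LPS was -0.49 over the 7 mRNAs with such a copy and -0.52 over the 6 without one.

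In control cells, all 13 mitochondrial mRNAs fell after 4 h of LPS, by 24.7% to 32.0%. The test was limma on log2(FPKM + 1) over all genes with Benjamini-Hochberg adjustment, and an adjusted p under 0.05 was called. Over all 13078 genes tested, 48.2% were called in this comparison, 15.3% higher and 32.9% lower, and 38% had 3 libraries with LPS all below the 3 without. For the mRNAs that count was 13 of 13. The median log2 fold change was -0.51 over the mRNAs (range -0.56 to -0.41) and -0.17 over all genes tested. Every adjusted p of an mRNA lay between 0.000296 and 0.00628.

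mt-Cytb, cytochrome b of complex III, had 4970, 5156 and 4615 FPKM in untreated control libraries against 3161, 3321 and 3539 FPKM in those with LPS (log2 fold change -0.56 ± 0.09 SE, adjusted p = 0.000296). Of the complex IV subunits, mt-Co1 went from 9639, 9792 and 10201 FPKM to 7068, 6884 and 7904 FPKM (-0.44 ± 0.08, adjusted p = 0.000659). mt-Co2 went from 2878, 2956 and 2780 FPKM to 2094, 2003 and 2214 FPKM (-0.45 ± 0.09). In each of these the lowest library without LPS lay well above the highest library with LPS. mt-Co3 had the smallest change of the 13, from 1600 ± 155 to 1204 ± 104 FPKM (SD, n = 3; log2 fold change -0.41 ± 0.10).

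The complex V subunits mt-Atp6 and mt-Atp8 fell alike. mt-Atp6, the proton channel subunit, had 6015, 6158 and 5493 FPKM without LPS against 4004, 4227 and 4195 FPKM with it (-0.51 ± 0.08, adjusted p = 0.000338). mt-Atp8 went from 10775, 11262 and 9740 FPKM to 6859, 7723 and 7485 FPKM (-0.53 ± 0.09, adjusted p = 0.000530). The ratio of mt-Atp8 to mt-Atp6 was 1.80 ± 0.03 without LPS and 1.77 ± 0.06 after it, within the spread of the libraries.

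Complex I subunits encoded by mitochondrial DNA form the membrane arm of the complex, and their 7 mRNAs fell by similar amounts. mt-Nd1 had 6250, 6716 and 5416 FPKM without LPS against 4425, 4812 and 4406 FPKM with it (-0.43 ± 0.10). mt-Nd4 had 2315, 2480 and 2081 FPKM and then 1496, 1671 and 1605 FPKM (-0.52 ± 0.09). The light-strand mRNA mt-Nd6 had 1246, 1434 and 1077 FPKM and then 903, 884 and 902 FPKM (-0.47 ± 0.11, adjusted p = 0.00317), so both strands were lower after LPS. mt-Nd2 (-0.52), mt-Nd3 (-0.49), mt-Nd4l (-0.54) and mt-Nd5 (-0.53) lay in the same range on the log2 scale. Along the genome, the log2 fold change of the 12 heavy-strand mRNAs tended to be more negative farther from the start (Spearman rho -0.66 over 12 genes that share libraries, precursor and, for 7, copies). The same rho was -0.36 in silenced cells.

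All 13 log2 fold changes in control cells stayed below 0 under the alternatives run, but their sizes and calls depended on the scaling. Median-ratio scaling moved the median log2 fold change of all genes from -0.17 to 0.03, and it called mt-Cytb, mt-Nd4, mt-Atp8 and mt-Atp6, 4 of the 13 mRNAs. The share of called genes that were higher went from 31.7% to 53.2% under it, and to 42.6% under quantile normalization. Relative to the median of all genes, the mRNA median was lower by 0.33 on the log2 scale with the deposited values and by 0.29 with median-ratio scaling. Under quantile normalization 9 of 13 were called. The lost ones included the 3 most abundant, mt-Atp8 (-0.06, adjusted p = 0.409), mt-Co1 (-0.09, adjusted p = 0.499) and mt-Nd1 (-0.08, adjusted p = 0.220), beside mt-Co2 (-0.20, adjusted p = 0.122). This normalization gives each rank the same value in every library, so genes at the top ranks are held near no change. The lost calls of the most abundant mRNAs therefore say little about their change. Testing without a filter on low values left 4 of 13 called, mt-Nd3, mt-Nd4, mt-Nd4l and mt-Nd6. Leaving out any 1 library kept all 13 called.

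In silenced cells, 6 of the 13 mRNAs fell after LPS, and the differences of all 13 ran from -19.7% to -7.65%. These were mt-Nd3, mt-Nd4l, mt-Nd4, mt-Nd6, mt-Cytb and mt-Co3, the last at an adjusted p of 0.049997. Over all genes tested, 48.5% were called, with 35.5% lower in this comparison and 41.9% had groups without overlap in that direction (16% in the other), against 6 and 7 of the 13 mRNAs. The median log2 fold change of the mRNAs, -0.24, lay close to that of all genes, -0.21. Both counts are thus near what all genes show in this comparison.

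mt-Nd6 had 1271, 1292 and 1056 FPKM in silenced libraries without LPS against 940, 1021 and 966 FPKM after it (-0.30 ± 0.11, adjusted p = 0.0340), without overlap. mt-Nd4l had 1640, 1850 and 1378 FPKM and then 1264, 1365 and 1254 FPKM (-0.32 ± 0.12, adjusted p = 0.0444). mt-Cytb had 4377, 4604 and 3859 FPKM and then 3328, 3785 and 3778 FPKM (-0.24 ± 0.09, adjusted p = 0.0432). The third silenced library without LPS was the lowest of its group for these 3 mRNAs. mt-Nd3 had 404, 431 and 352.5 FPKM and then 294, 362 and 322 FPKM (-0.28 ± 0.10, adjusted p = 0.0310), and its groups overlapped.

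Members that were not called in silenced cells included the most abundant ones. mt-Co1 had 8821, 9048 and 8334 FPKM without LPS against 7475, 8157 and 8592 FPKM with it (-0.11 ± 0.08, adjusted p = 0.249, 95% interval -0.29 to 0.06). mt-Atp8 had 9087, 9834 and 8315 FPKM and then 7549, 8660 and 8026 FPKM (-0.17 ± 0.09, adjusted p = 0.148). mt-Atp6 (-0.17 ± 0.08), mt-Co2 (-0.19 ± 0.09), mt-Nd1 (-0.21 ± 0.10), mt-Nd2 (-0.29 ± 0.13) and mt-Nd5 (-0.27 ± 0.12) were also below 0 and not called. The count of 6 rested on single libraries. It was 0 without silenced replicate 1 or 2 of the cells without LPS and 0 without silenced replicate 1 or 3 of the cells with LPS. Without silenced replicate 2 after LPS, control replicate 1 without LPS or control replicate 3 after LPS it was 2, and without control replicate 1 after LPS it was 3. Under median-ratio scaling it was 0 and the mRNA median turned to 0.039, while scaling to a common sum without the mitochondrial genes gave 13. With estimated depth in the model it was 1 (mt-Co3).

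**Figure D4:**
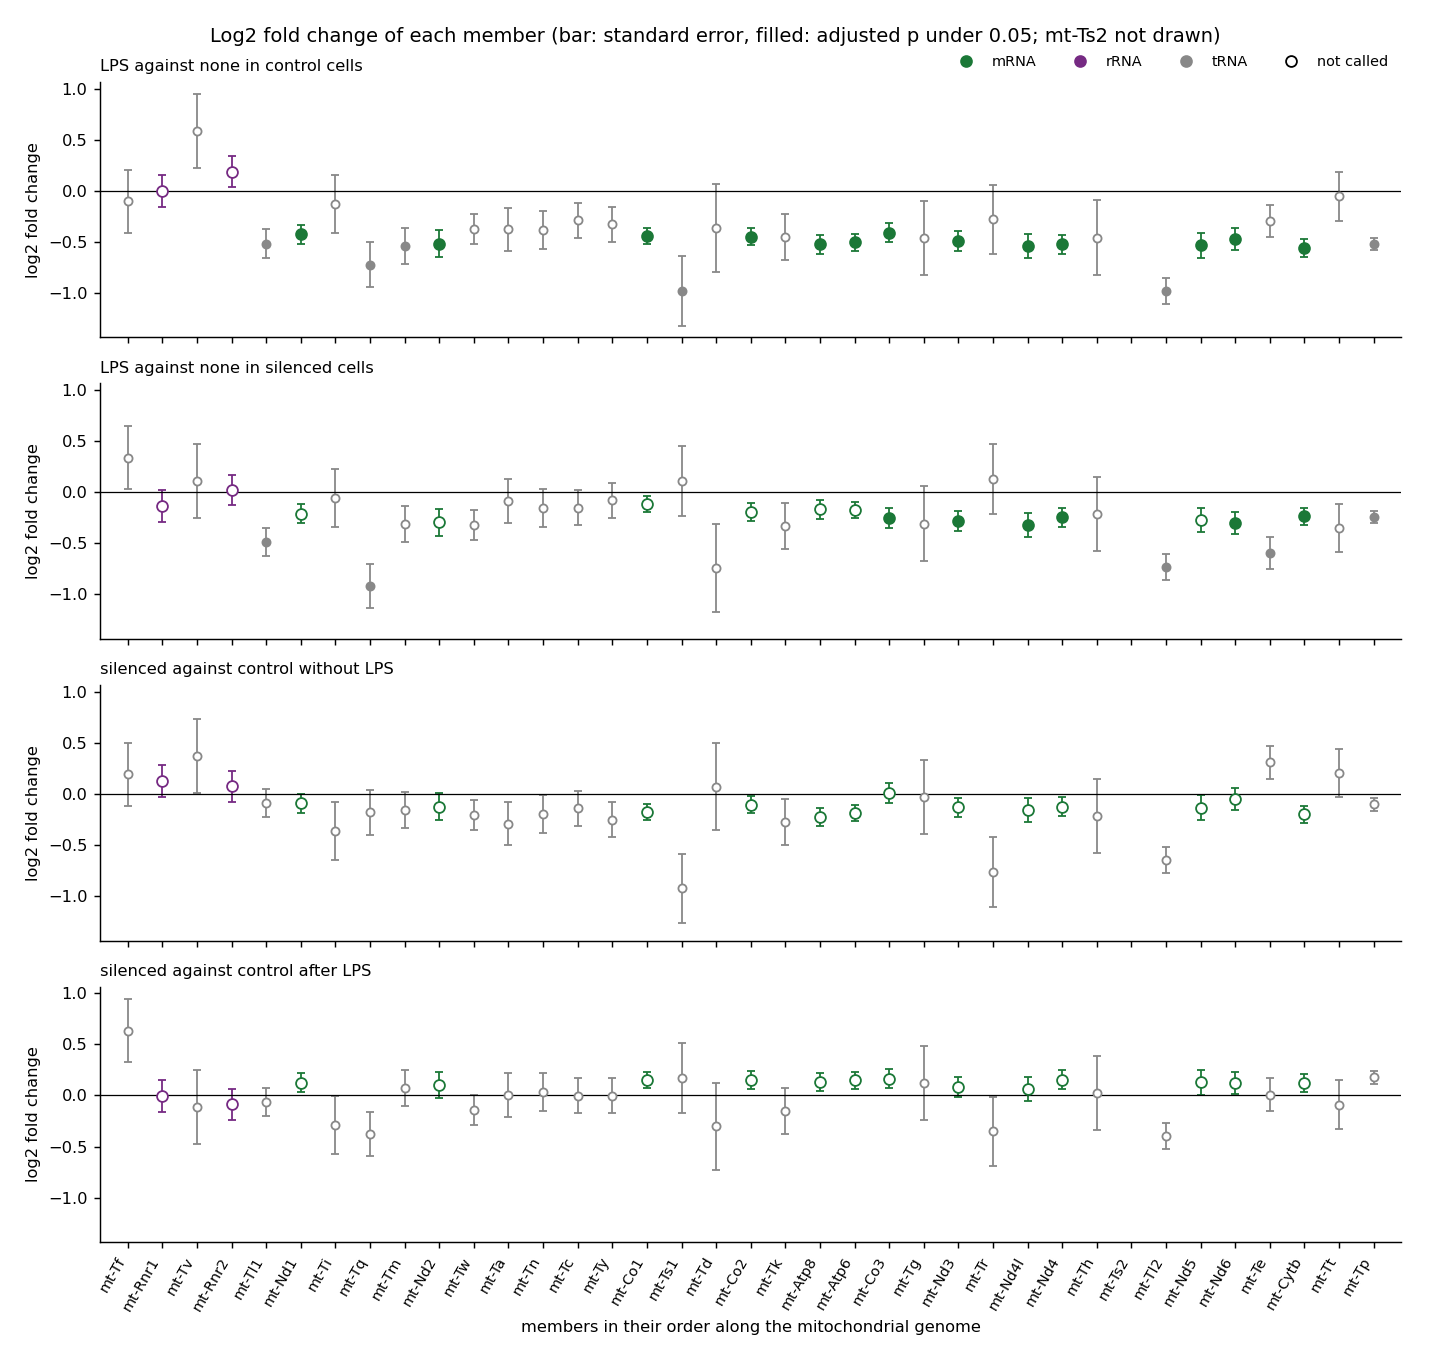
Log2 fold change of each member from limma, in the order of the genes along the mitochondrial genome, for the 2 comparisons of LPS and the 2 of silencing. Error bars are standard errors, filled points have an adjusted p under 0.05, and mt-Ts2 is left out for its wide error (-2.91 ± 1.46 for LPS in control cells). The 13 mRNAs lie between -0.56 and -0.41 after LPS in control cells and between -0.32 and -0.11 in silenced cells.

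Silencing Synbindin gave no called change in any of the 37 members. Without LPS, limma called 0 mRNAs, 0 rRNAs and 0 tRNAs, where 0.214% of all genes were called (0.122% higher, 0.0918% lower) and 8.35% had silenced libraries all below control libraries. Unadjusted p was under 0.05 for 4 mRNAs (mt-Atp8, mt-Cytb, mt-Atp6 and mt-Co1) and 3 of 22 tRNAs, and for 11.97% of all genes. The mRNA log2 fold changes ran from -0.22 to 0.01 with a median of -0.13, against 0.01 for all genes. mt-Atp8 had a mean of 10592 ± 777 FPKM with control siRNA against 9079 ± 759 FPKM with Synbindin siRNA (SD, n = 3; log2 fold change -0.22 ± 0.09, adjusted p = 0.364). mt-Cytb was 4914 ± 275 and 4280 ± 382 FPKM (-0.20 ± 0.09), and it and mt-Co1 had groups that did not overlap. The 95% intervals of the 13 mRNAs together ran from -0.42 to 0.22.

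After LPS, the mRNA log2 fold changes for silencing were above 0 for 13 of 13, with a median of 0.13 and a range of 0.06 to 0.17. None was called, and 0 mRNAs and 2 of 22 tRNAs had an unadjusted p under 0.05, against 12.98% of all genes. Of all genes, 0.719% were called, 0.314% higher and 0.405% lower. Silenced libraries were all above control libraries for 7.62% of all genes, against 4 of 13 mRNAs (mt-Atp6, mt-Co3, mt-Nd4 and mt-Nd6). The 13 mRNAs share libraries and scaling, so these are not separate observations. The highest control and lowest silenced libraries were close for mt-Co3 (1293 and 1302 FPKM) and mt-Nd4 (1671 and 1684 FPKM). mt-Atp6 had 4004, 4227 and 4195 FPKM in control and 4302, 4782 and 4689 FPKM in silenced libraries (0.15 ± 0.08, adjusted p = 0.483). mt-Nd6 had 903, 884 and 902 FPKM and 940, 1021 and 966 FPKM (0.12 ± 0.11). The intervals of the 13 mRNAs ran from -0.20 to 0.39.

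The difference between the LPS changes in silenced and control cells was tested as an interaction. It was above 0 for 13 of 13 mRNAs, with a median of 0.26, and 0 were called. Of all 13078 genes, 8 were (0.0612%), 0.0382% higher and 0.0229% lower. The unadjusted limma p was under 0.05 for 4 mRNAs, mt-Co1 (0.33 ± 0.11, adjusted p = 0.326), mt-Atp6 (0.33 ± 0.11), mt-Atp8 (0.36 ± 0.13) and mt-Cytb (0.32 ± 0.12), and for 11.3% of all genes. The smaller change in silenced cells was thus not shown to differ from that in control cells after adjustment. The intervals of the 13 ran from -0.18 to 0.64. Under quantile normalization the median of the 13 was 0.06.

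In control cells the 2 rRNAs did not follow the mRNAs. mt-Rnr1, the RNA of the small mitochondrial ribosomal subunit, had 682, 894 and 673 FPKM in control libraries without LPS against 664, 945 and 651 FPKM after LPS (log2 fold change -0.0027 ± 0.16, adjusted p = 0.991, 95% interval -0.35 to 0.35). mt-Rnr2, the RNA of the large subunit, had 1160, 1426 and 1206 FPKM and then 1225, 1642 and 1465 FPKM (0.19 ± 0.15, adjusted p = 0.333, interval -0.15 to 0.52). Groups overlapped in both. In silenced cells, mt-Rnr1 had 713, 837 and 899 FPKM and then 670, 752 and 806 FPKM (-0.13 ± 0.16, adjusted p = 0.519). That change lay within the range of the mRNAs in silenced cells (-0.32 to -0.11). mt-Rnr2 had 1089, 1336 and 1610 FPKM and then 1205, 1381 and 1477 FPKM (0.02 ± 0.15, adjusted p = 0.914).

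Silencing changed neither rRNA by a called amount, with log2 fold changes between -0.09 and 0.13 and adjusted p of at least 0.796. The ratio of mt-Rnr2 to mt-Rnr1 was 1.70 ± 0.10 and 1.64 ± 0.14 in control and silenced cells without LPS and 1.94 ± 0.27 and 1.82 ± 0.02 after LPS. In silenced cells the ratio was higher after LPS without overlap, and in control cells the ranges overlapped. Within each of the 4 groups, the library with the highest mt-Rnr1 and mt-Rnr2 was also the one with the highest AY036118 and CT010467.1, 2 records on chromosome 17 of which the second is annotated as an rRNA. AY036118 had 8152 FPKM in control replicate 2 after LPS and 2052 to 4353 FPKM in the other 11 libraries. Its part in the rRNA values was not tested. Under median-ratio scaling mt-Rnr2 was called higher after LPS in control cells (0.42, adjusted p = 0.0479). Under quantile normalization mt-Rnr1 was called lower after LPS in silenced cells (-0.54, adjusted p = 0.0290).

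**Figure D5:**
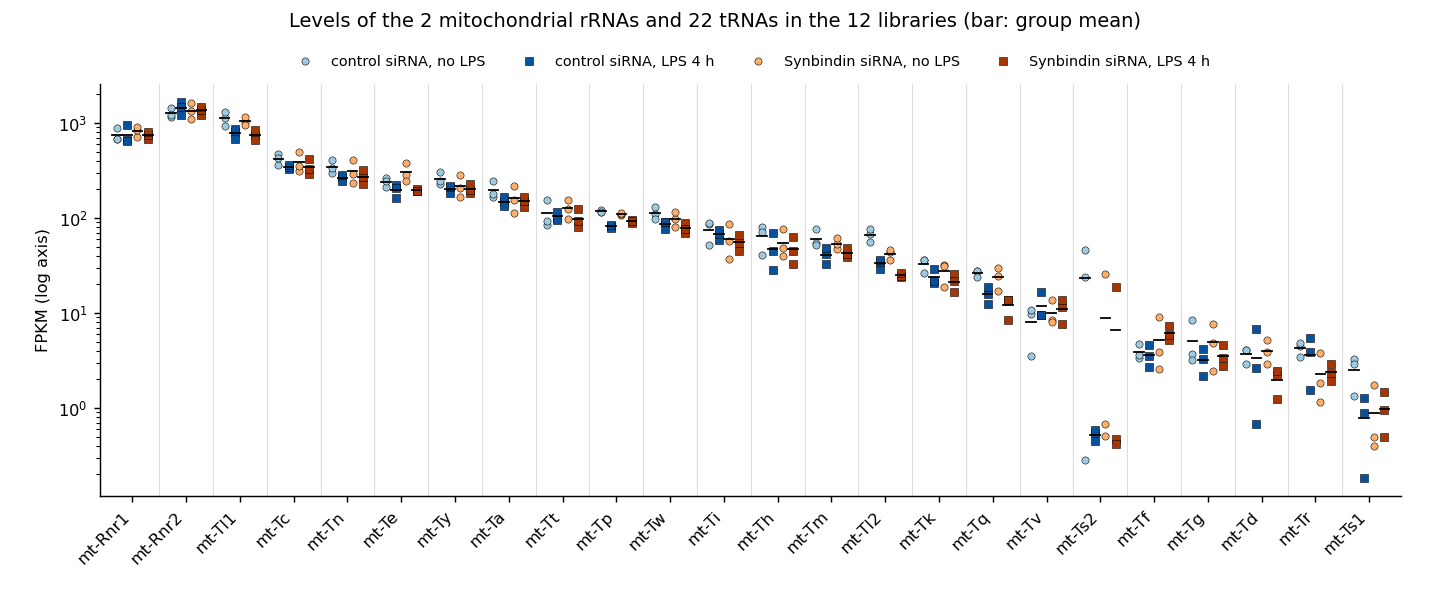
FPKM of the 2 rRNAs and the 22 tRNAs (by falling mean) on a log axis, with 1 point per library and a bar at each group mean. rRNA points overlap between groups, and mt-Ts2 is split between libraries at 18.9 FPKM or more and libraries below 1 FPKM.

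The tRNAs spanned a far wider range than the mRNAs and fell less uniformly. Their mean FPKM ran from 1.29 (mt-Ts1) to 919 (mt-Tl1), with a median of 51.5, and 8 of 22 were under 20 FPKM. Whether the values of these short genes come from mature tRNAs or from precursors that include their neighbours was not tested. The 8 minus-strand tRNAs had a median of 193 FPKM and the 14 plus-strand tRNAs 34.0 FPKM. In control cells LPS lowered 6 of 22 tRNAs and raised 0, against 32.9% of all genes called lower, and 11 of 22 had lower groups without overlap, against 38% of all genes. The median log2 fold change was -0.38, against -0.17 over all genes tested. The count of called tRNAs was thus not above what all genes show in this comparison. The 6 were mt-Tl1, mt-Tp, mt-Tl2, mt-Tq, mt-Tm and mt-Ts1, of which the last 4 lie outside the 8 most abundant and were named after their values had been seen.

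mt-Tl1, excised between mt-Rnr2 and mt-Nd1, had 1121, 1298 and 927 FPKM in control libraries without LPS against 800, 856 and 672 FPKM after LPS (-0.52 ± 0.14, adjusted p = 0.00905). mt-Tp had 116, 120 and 115 FPKM and then 82.5, 77.6 and 84.4 FPKM (-0.52 ± 0.06, adjusted p = 4.01e-05), with libraries of each group close together. mt-Tl2 had 68.0, 76.4 and 56.1 FPKM and then 29.1, 34.4 and 36.2 FPKM (-0.98 ± 0.13, adjusted p = 7.48e-05), the lowest value without LPS being above the highest with it. mt-Tq, the glutamine tRNA, went from 26.5 ± 2.13 to 15.8 ± 3.15 FPKM (-0.72 ± 0.22) and lost its call without control replicate 2 after LPS (adjusted p = 0.0658). mt-Tm, the methionine tRNA, went from 60.6 ± 13.3 to 41.3 ± 8.14 FPKM (-0.54 ± 0.17) and lost its call without control replicate 2 before LPS (0.0954) or control replicate 1 after LPS (0.0971). mt-Ts1, at 2.51 ± 1.03 and 0.78 ± 0.55 FPKM, lost its call without control replicate 1 or 2 of either time (adjusted p 0.0538 to 0.123).

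Under median-ratio scaling mt-Tp and mt-Tl2 were called of these 6, and mt-Tl1 was at -0.28 (adjusted p = 0.0986). Among the other abundant tRNAs, none was called in control cells, while quantile normalization called mt-Ta, mt-Tn, mt-Tc, mt-Ty and mt-Te lower (-0.68 to -0.57). mt-Tc, the cysteine tRNA, had 362, 474 and 424 FPKM and then 328, 341 and 357 FPKM (-0.29 ± 0.17, adjusted p = 0.191). mt-Tn (-0.39 ± 0.19), mt-Ty (-0.33 ± 0.17) and mt-Ta (-0.38 ± 0.21), the asparagine, tyrosine and alanine tRNAs of the same minus-strand cluster, likewise had groups without overlap and were not called. mt-Te, the glutamate tRNA beside mt-Nd6, had overlapping groups (-0.29 ± 0.16), and mt-Tt, the threonine tRNA, was at -0.06 ± 0.24. mt-Tv, which lies between the rRNAs, was the 1 tRNA with a value above 0 (0.59 ± 0.36, adjusted p = 0.202).

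In silenced cells LPS lowered 5 of 22 tRNAs, mt-Tl1, mt-Tl2, mt-Tp, mt-Tq and mt-Te, against the background of 35.5%. This count, too, was not above the share of all genes called lower. mt-Tl2 had 44.3, 36.2 and 45.8 FPKM without LPS against 24.0, 24.4 and 26.4 FPKM after it (-0.73 ± 0.13, adjusted p = 0.000620). mt-Te had 376, 284 and 243 FPKM and then 191, 204 and 192 FPKM (-0.59 ± 0.16, adjusted p = 0.00904). mt-Tl1 went from 1041 ± 100 to 743 ± 88.8 FPKM (-0.49 ± 0.14) and lost its call without silenced replicate 2 before LPS (adjusted p = 0.0510) or silenced replicate 3 after LPS (0.0539). mt-Tp had 107, 109 and 112 FPKM and then 88.3, 94.8 and 93.7 FPKM (-0.24 ± 0.06, adjusted p = 0.00716). Under median-ratio scaling only mt-Tl2 and mt-Tq were called of the 5, and mt-Tp was at 0.038.

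mt-Tl2 was also the member with the lowest p for silencing without LPS. Its mean was 66.8 ± 10.2 FPKM with control siRNA against 42.1 ± 5.17 FPKM with Synbindin siRNA, without overlap (-0.65 ± 0.13, adjusted p = 0.0786). It passed the threshold without control replicate 3 (adjusted p = 0.0465). After LPS it was 33.2 ± 3.71 and 24.9 ± 1.30 FPKM, again without overlap (-0.40 ± 0.13, adjusted p = 0.206). Of all genes, 8.35% had silenced libraries all below control libraries without LPS, and 11.3% after LPS. These comparisons use different libraries but share an estimate of the spread. mt-Ts2, directly upstream of mt-Tl2, was split between libraries of the same group. It had 24.1, 0.28 and 45.8 FPKM in control and 25.6, 0.68 and 0.51 FPKM in silenced libraries without LPS. After LPS it had 0.45, 0.54 and 0.58 FPKM in control and 18.9, 0.48 and 0.42 FPKM in silenced libraries. No comparison called it (-2.91 ± 1.46 for LPS in control cells, adjusted p = 0.121). Both were singled out after their values had been seen.

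Nuclear genes that make, process or use mitochondrial RNA moved in both directions after LPS in control cells. Of 9 tested genes on the list for mitochondrial transcription, 1 rose and 3 fell. Polrmt, the mitochondrial RNA polymerase, was 5.20 ± 0.29 FPKM without and 3.06 ± 0.28 FPKM with LPS (-0.61 ± 0.12, adjusted p = 0.00120), and in silenced cells it was 6.62 ± 0.82 and 3.11 ± 0.52 FPKM (-0.89 ± 0.12). Tfb2m (-0.33) and the listed gene Tfb1m (-0.35) fell and Tefm, the elongation factor, rose (0.54 ± 0.19). Counts in these lists stand beside 15.3% higher and 32.9% lower over all genes.

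Of 22 genes of mitochondrial RNA processing and decay, 3 rose and 6 fell. Pnpt1, which encodes polynucleotide phosphorylase, was 27.8 ± 3.64 FPKM without and 52.1 ± 5.38 FPKM with LPS (0.89 ± 0.13, adjusted p = 0.000155). In silenced cells it was 23.0 ± 1.21 and 60.9 ± 9.63 FPKM (1.35 ± 0.13). Fastkd2 rose (0.43), and Angel2 (-0.42) and Pde12 (-0.57), a mitochondrial poly(A)-removing enzyme, fell. Of 20 genes of mitochondrial DNA maintenance, 5 rose and 6 fell. Cmpk2, a mitochondrial nucleotide kinase, was 5.21 ± 3.06 FPKM without and 189 ± 31.9 FPKM with LPS (5.09 ± 0.35). Polg, the mitochondrial DNA polymerase (-0.65), Mgme1 (-0.69) and Slc25a36 (-1.09) fell.

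Of the genes that serve mitochondrial translation, 4 lists were counted. Of 19 rRNA and tRNA modification genes 0 rose and 8 fell, including Mettl17 (-0.70), Mrm1 (-0.64), Mrm3 (-0.43) and Gtpbp3 (-0.39). Of 15 translation factors 0 rose and 5 fell, including Gfm2 (-0.61), Guf1 (-0.57), Mtfmt (-0.42) and Oxa1l (-0.41). Of 19 aminoacyl-tRNA synthetase genes 3 rose and 9 fell. Gars (0.58) and Kars (0.42), which also serve the cytosol, rose, and Iars2 (-0.40) and Mars2 (-0.46) fell. Among 83 mitochondrial ribosomal protein genes, 12 rose and 11 fell with a median of -0.01. Mrpl43 was 58.6 ± 5.02 FPKM without and 32.5 ± 1.75 FPKM with LPS (-0.83 ± 0.10), and Mrpl52 was 19.3 ± 2.04 and 44.8 ± 9.86 FPKM (1.16 ± 0.17).

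Most nuclear subunits of the complexes that contain mitochondrially encoded subunits were not called. In control cells after LPS, 5 of 37 complex I genes rose and 5 fell (median -0.12), with Ndufa10 (0.35) and Ndufb9 (0.38) up and Ndufv3 (-0.50) and Ndufb3 (-0.28) down. For complex III 1 of 9 rose, Uqcrc2 (0.46), and 0 fell. For complex IV 0 of 11 rose and 3 fell, Cox8a (-0.45), Cox6a1 (-0.33) and Cox7c (-0.20). For complex V 2 of 18 rose, Atp5f1 (0.31) and Atp5b (0.29), and 3 fell, among them Atp5g2 (-0.45) and Atp5g1 (-0.63). Of 9 biogenesis regulators, Myc rose from 4.48 ± 0.87 to 46.5 ± 6.52 FPKM (3.12 ± 0.14), and Ppargc1b (-0.99) and Yy1 (-0.54) fell. Among 81 genes on the list of cytosolic ribosomal proteins, 11 rose and 3 fell with a median of 0.02. Rpl4 (0.46), Rpl6 (0.50), Rpsa (0.43) and the ribosomal protein-like gene Rpl7l1 (0.69) were among those that rose. In silenced cells after LPS, 13% of all genes were called higher and 35.5% lower. LPS raised 0 and lowered 5 of 9 genes on the transcription list, and 1 and 7 of 22 processing genes. It raised 2 and lowered 7 of 20 maintenance genes, and 7 and 21 of 83 mitochondrial ribosomal protein genes. It raised 0 and lowered 5 of 19 modification genes, 7 of 15 translation factors and 10 of 19 synthetase genes. Among nuclear subunits it raised 1 and lowered 4 of complex I, raised 1 of complex III, called 0 of complex IV and lowered 4 of complex V. It raised 1 and lowered 3 of 9 biogenesis regulators, and raised 19 of 81 genes on the list of cytosolic ribosomal proteins. limma called 0 genes of these 13 lists for silencing at either time, and 0 for the interaction.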

How the data were processed

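Gene expression was taken from 1 table of gene FPKM for 12 libraries, as deposited by the authors. HISAT2 and StringTie were used with the GRCm38 build, per the submitters' processing notes, which state neither versions nor order. The libraries were strand-specific, per the labels' protocols. How RNA was selected, which annotation release was used and how reads matching several places were handled: not given in the sources used here. FPKM are not counts, and whole fragments could not be recovered (8.70% to 14.6% of small values per library came within 1% of a whole step), so no count test was run.

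Tests covered the 13078 genes that reached 1 FPKM in 3 or more libraries. The model was limma 3.58.1 (R 4.3.3) on log2(FPKM + 1), in which each of the 4 groups has its mean, with an intensity trend and 8 residual degrees of freedom. Fold changes are on that scale, which understates changes of low genes, and their errors are SE. Tests were 2-sided, with Benjamini-Hochberg adjustment over all genes tested in each comparison. Sums, shares and ratios of members have no test. Comparisons that share libraries are not independent. Nuclear copies were found with BLAST 2.17.0 among GENCODE M21 transcripts (at least 150 aligned bases and 90% identity). Named were all mRNAs and rRNAs, the 8 most abundant tRNAs, up to 4 called genes of each nuclear list with the smallest adjusted p in control cells after LPS, and up to 8 copies by the rule of 500 bases and 95% identity. Members and lists were chosen with earlier results of these data known. Alternatives were another pseudocount (0.1), no filter and a filter of 5 FPKM, other scalings, a block for replicate number, a fit restricted to the compared groups, no trend, estimated depth as a covariate, copies summed with members, and each library left out.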

Additional observations from a re-analysis of the deposited data

How the results depend on the processing

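FPKM carry no counts, so the counting error of single values is not known, and fragments shared between mRNAs and nuclear copies were assigned by the authors' software. Several alternatives were added after seeing the data: the nuclear copies summed or added, the common sums without mitochondrial genes and copies or without 2 ribosomal RNA records, and the estimated depth as a covariate. Cause was not tested for any of the changes below.

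For LPS in control cells, the 13 called mRNAs became 4 without a filter on low values and 4 with median-ratio scaling, and 9 after quantile normalization. For LPS in silenced cells, the 6 called mRNAs became 3 with a pseudocount of 0.1, 0 without a filter, 12 with a common sum, 13 with a common sum without mitochondrial genes (also without the copies, and 13 without 2 ribosomal RNA records), 0 with median-ratio scaling, 1 in a fit of only the groups compared, 0 without the trend and 1 with the depth covariate. Leaving out a library gave 0 to 9. Under median-ratio scaling in silenced cells 5 called members changed sign, mt-Co3 (0.032), mt-Nd3 (0.0027), mt-Nd4 (0.039), mt-Cytb (0.046) and mt-Tp (0.038). For rRNAs and tRNAs, the 6 called in control cells became 3 with median-ratio scaling (mt-Rnr2 higher), 11 after quantile normalization and 12 where the common sum left out mitochondrial genes and copies. The 5 in silenced cells became 2 and 8 with the first 2 of these (mt-Rnr1 lower among the 8). mt-Tf was called higher there with the depth covariate (0.76) and without silenced replicate 2 before LPS (0.76). Leaving out a library gave 4 to 8 in control and 4 to 7 in silenced cells, and 0 to 1 for silencing without LPS.

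Shares of mRNAs over protein-coding genes alone were 21.1%, 18.7%, 14.5% and 15.3% (control and silenced without LPS, control and silenced after LPS). Weighted by length they were 5.16%, 4.63%, 3.71% and 4.08%, and with copies added 22.3%, 20.01%, 15.6% and 16.6%. Relative to the median of all genes, the mRNA median stayed below in control cells in 26 of 26 other settings (-0.48 to -0.28), and in silenced cells it ran from -0.23 to 0.04.

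Replicate numbers recur across groups, and the labels do not say that they pair libraries. Correlations of deviations between libraries of the same number were -0.03 to 0.19 (18 pairs, 3 over 0.1), with a median of 0.05. Between libraries of different numbers they were -0.13 to 0.13 (36 pairs, 1 over 0.1), with a median of -0.05. Deviations from the group mean sum to 0 within each group, so higher values for same-number pairs go with lower values for the others. The medians are therefore not separate observations. All correlations were low and do not settle whether libraries are paired. The numbers were not taken as pairing in the main model. With the replicate number as a block, 13 and 9 mRNAs were called for LPS in control and silenced cells, with 7 and 6 rRNAs and tRNAs, and 0 for silencing and for the interaction. The interaction could not be fitted on only the groups compared, since it needs all 4.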
